A study of Mus musculus with 18 samples.

Results

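The genes of the 3 nuclear RNA polymerases were followed through T cell activation, loss of the orphan nuclear receptor ERRα and treatment with ERRα inhibitors. The rule took every gene whose symbol begins with Polr1, Polr2 or Polr3, together with Taf1a to Taf1d, Ttf1, Ubtf, Rrn3, Brf1, Brf2, Gtf3a, Gtf3c1, Gtf3c2 and Znrd1, where a probe set of the array names that gene alone. It found 35 of the 12393 genes with such a probe set. They are 4 subunits of RNA polymerase I (Pol I: Polr1a, Polr1b, Polr1e and Znrd1), 2 subunits shared by Pol I and Pol III (Polr1c and Polr1d), 3 shared by all 3 enzymes (Polr2e, Polr2f and Polr2h), 8 of Pol II (Polr2a, Polr2b, Polr2c, Polr2d, Polr2g, Polr2i, Polr2j and the Pol II-associated Polr2m) and 8 of Pol III (Polr3a, Polr3c, Polr3d, Polr3e, Polr3f, Polr3g, Polr3gl and Polr3k). The other 10 are 7 initiation and termination factors of Pol I (Rrn3, Taf1a, Taf1b, Taf1c, Taf1d, Ttf1 and Ubtf) and 3 initiation factors of Pol III (Gtf3a, Gtf3c1 and Gtf3c2). Brf1, Brf2 and Polr3b were not analysed here, and Polr2k and Polr2l lie only on probe sets that name several genes. All 35 members passed the filter on low signals that left 6873 genes tested, and none of their array values lay under log2 4.

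The 18 Affymetrix arrays hold 6 groups of 3 independent samples of CD4+ T cells from mice aged 6 to 8 weeks. ERRKO stimulated and ERRKO resting cells came from mice lacking ERRα (ERRα-/-), and WT cells treated with XCT790, WT cells treated with Compound A, WT stimulated and WT resting cells came from wild-type mice. Stimulated cells were cultured for 12 h with anti-CD3 and anti-CD28 antibodies (10 µg), which engage the antigen receptor and the costimulatory receptor CD28. Resting cells were taken directly from the animal. XCT790 lowers the activity of ERRα as an inverse agonist. Compound A is named by code alone and described as a second inhibitor of the receptor. Each was given to wild-type cells at 20 µM. The stimulation label of the 6 inhibitor arrays reads as unstimulated, whereas the protocol and the series design add the inhibitors during the 12 h stimulation, so each inhibitor was set against stimulated and against resting WT cells. Strain and sex are not given in the sources used here, and neither is any pooling of animals.

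RNA polymerase I makes the precursor of the large ribosomal RNAs in the nucleolus, RNA polymerase II makes messenger RNAs, and RNA polymerase III makes transfer RNAs and the smallest ribosomal RNA. The 3 enzymes share a set of subunits and differ in their large catalytic subunits and in the factors that bring them to promoters. A lymphocyte that leaves rest grows before it divides, and the production of ribosomes is a known part of that growth.

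Signals are log2 values after GCRMA, a method that corrects each probe set for background and probe sequence. Every array holds the same sorted set of values, so each difference is relative to the rest of that array, and an increase in total RNA per cell would not show. In bulk RNA of this kind, a change in the share of a cell type and a change in RNA per cell cannot be told apart. A member is said to rise or fall where limma's moderated test gave an adjusted p under 0.05 over all genes tested. Arrays that do not overlap are described for single members. The share of all genes without overlap was counted for ERRKO against WT resting cells alone, so elsewhere non-overlap has no background beside it. Znrd1, Polr1d, Polr3f and Gtf3c1 did not overlap between WT stimulated and WT resting cells and yet did not pass. T cell markers were present throughout, with Cd3d at a group mean between 13.3 and 14.1 and Cd4 between 8.57 and 10.97, while of the 2 genes of the CD8 co-receptor Cd8a stayed between 2.24 and 2.25 and Cd8b1 lay between 5.81 and 7.32 in the 6 groups. Esrra, which encodes ERRα, averaged 4.45 ± 0.23 in ERRKO stimulated and 4.55 ± 0.18 in ERRKO resting cells, against 5.37 ± 0.09 in WT stimulated and 5.42 ± 0.15 in WT resting cells (SD, n = 3 each). The bacterial dap spike-in, read at its 5 prime probe set, lay between 7.45 and 8.51 on the 12 ERRKO and inhibitor arrays and between 3.99 and 6.38 on the 6 untreated WT arrays. Every comparison of ERRKO or inhibitor arrays with untreated WT arrays crosses that split, and the 2 cannot be told apart there. Stimulated against resting cells of 1 genotype, and the 2 inhibitors against each other, do not cross it. The 3 prime probe set of dap was split another way, between 10.57 and 10.99 on the 6 stimulated ERRKO and WT arrays and between 11.36 and 11.89 on the 6 resting arrays. It lay between 11.02 and 11.47 with XCT790 and between 10.80 and 10.98 with Compound A. Stimulated and resting arrays, and those of the 2 inhibitors, were thus apart on that probe set. The 5 prime probe set also separated the inhibitors, between 8.17 and 8.51 with XCT790 and between 7.77 and 8.10 with Compound A. The part of either spike-in difference in the members' values was not tested.

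Most of the polymerase genes were higher in stimulated than in resting cells of both genotypes. Stimulated cells were cultured for 12 h and resting cells came directly from the animal, so culture and stimulation cannot be told apart. The response to stimulation below means the difference between these groups. In ERRKO cells 23 of the 35 members rose and 5 fell, where 37.7% of all genes tested rose and 35.7% fell (73.4% called in all). In WT cells 21 members rose and 3 fell, where 37.0% of all genes rose and 38.4% fell (75.4% called in all). The median log2 difference over the members was 0.50 in ERRKO and 0.47 in WT cells, beside 0.01 and -0.01 over all genes tested. The calls were the same in both genotypes for 29 members, of which 20 rose, 3 fell and 6 did not pass. The share of all genes tested with the same call in both genotypes was not counted, so this is no trait particular to the members.

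**Figure D1:**
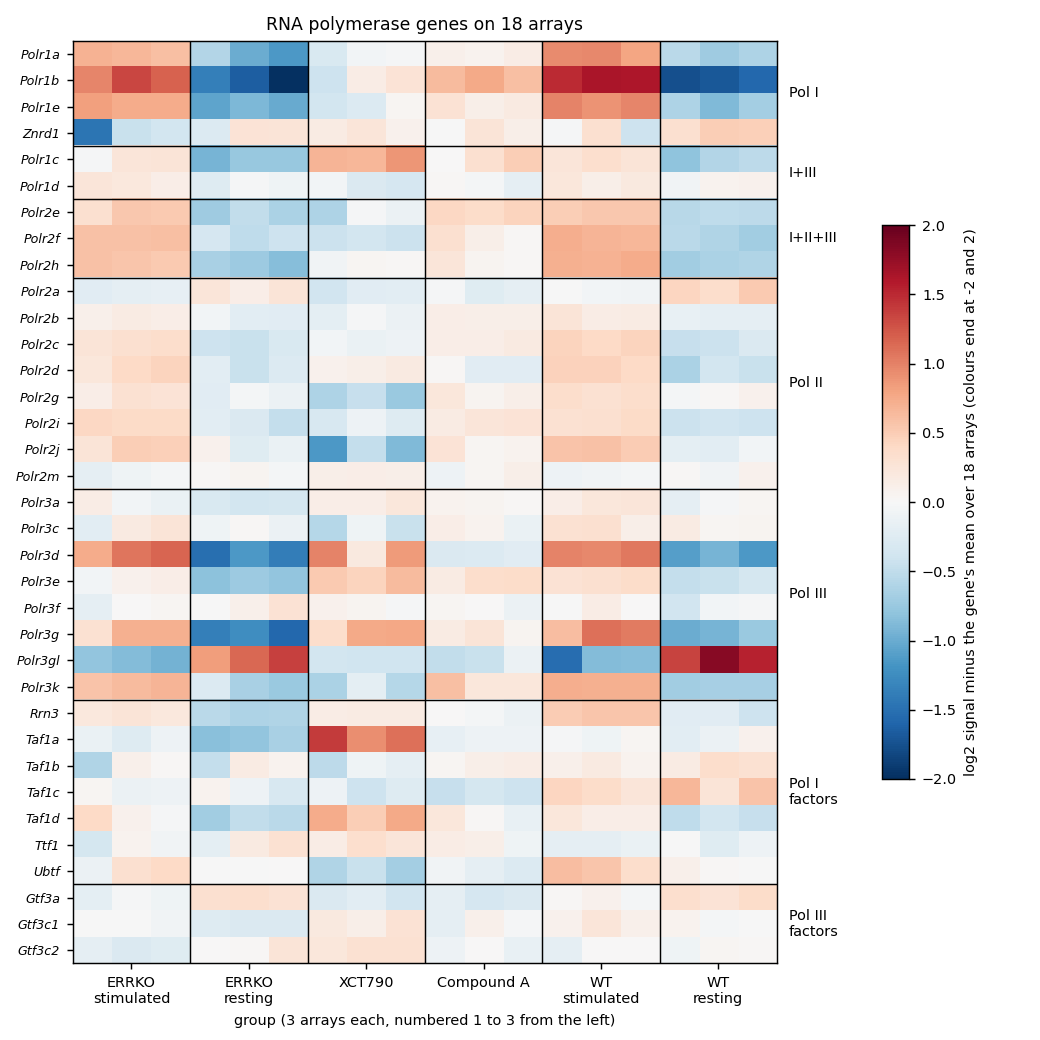
Signal of each of the 35 members (rows, grouped by enzyme) on each of the 18 arrays (columns, by group), as the log2 difference from that member's mean over the 18 arrays. Polr1b, Polr3d and Polr3g are high on the stimulated arrays and Polr3gl is high on the resting arrays of both genotypes.

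The Pol I subunits gave the largest median response among the 3 enzymes. Polr1b encodes the second-largest subunit, which forms the active site together with Polr1a. Its signals were 7.60, 7.97 and 7.81 in ERRKO stimulated cells, against 5.26, 4.98 and 4.40 in ERRKO resting cells. Signals of WT stimulated cells were 8.11, 8.26 and 8.24, against 4.86, 4.93 and 5.06 in WT resting cells. Every stimulated array of both genotypes lay more than 2 log2 units above every resting array. The difference was 2.91 ± 0.19 (SE, 7.53-fold, adjusted p = 6.83e-09) in ERRKO and 3.25 ± 0.19 (9.52-fold, adjusted p = 1.72e-09) in WT cells, the largest rise of any member in either genotype.

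Polr1a encodes the largest subunit of Pol I. It read 9.07, 9.04 and 8.97 in ERRKO stimulated cells, against 7.78, 7.38 and 7.23 in ERRKO resting cells. In WT stimulated cells it read 9.33, 9.34 and 9.16, against 7.83, 7.67 and 7.76 in WT resting cells. The stimulated arrays did not overlap the resting ones, and the difference was 1.56 ± 0.12 in ERRKO and 1.52 ± 0.12 in WT cells (SE, adjusted p = 2.39e-08 and 2.57e-08). Polr1e encodes a subunit of the Pol I-specific dimer that acts in initiation and elongation. Its signals were 9.07, 8.99 and 8.99 in ERRKO stimulated cells, against 7.19, 7.34 and 7.23 in ERRKO resting cells. The WT stimulated arrays read 9.23, 9.13 and 9.21, against 7.63, 7.37 and 7.56 in WT resting cells. Again no arrays overlapped, with differences of 1.76 ± 0.10 and 1.67 ± 0.10 (SE, adjusted p = 1.02e-09 and 1.34e-09).

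Znrd1, the small Pol I subunit that takes part in RNA cleavage, did not follow the other 3. It read 8.01, 9.02 and 9.11 in ERRKO stimulated cells, against 9.20, 9.75 and 9.73 in ERRKO resting cells. WT stimulated cells gave 9.46, 9.79 and 9.06, against 9.79, 9.96 and 9.95 in WT resting cells. It fell by 0.85 ± 0.25 in ERRKO cells (SE, adjusted p = 0.00671), where 1 stimulated array lay about 1 log2 unit below the other 2. The WT difference of -0.47 did not pass (adjusted p = 0.101). Of the 2 subunits shared by Pol I and Pol III, which together form the assembly platform of both enzymes, Polr1c rose in both genotypes. Its signals were 9.93, 10.20 and 10.20 in ERRKO stimulated and 9.03, 9.19 and 9.20 in ERRKO resting cells, and 10.20, 10.29 and 10.22 in WT stimulated and 9.15, 9.37 and 9.43 in WT resting cells. The groups did not overlap, and the differences were 0.97 and 0.91 (SE 0.12 each). Polr1d rose by 0.32 in ERRKO cells (adjusted p = 0.0041), and its WT difference of 0.15 did not pass (adjusted p = 0.139).

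The 3 subunits common to all enzymes rose in both genotypes by similar amounts, from 1.02 to 1.30 in ERRKO and from 1.05 to 1.36 in WT cells. Polr2e encodes a subunit near the path of the incoming DNA. Its signals were 11.13, 11.35 and 11.34 in ERRKO stimulated and 10.10, 10.32 and 10.18 in ERRKO resting cells. The WT stimulated arrays gave 11.31, 11.36 and 11.35, against 10.26, 10.32 and 10.30 in WT resting cells, so that stimulated and resting arrays were apart in each genotype. Polr2h rose by 1.30 ± 0.07 in ERRKO and 1.36 ± 0.07 in WT cells (SE, adjusted p = 7.46e-10 and 3.78e-10), and Polr2f by 1.02 and 1.31.

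Pol II subunits had a lower median response than the Pol I subunits and those common to all enzymes. The largest Pol II subunit moved against most of the others. Polr2a encodes the catalytic subunit with the repeated C-terminal tail. Its signals were 11.34, 11.38 and 11.40 in ERRKO stimulated cells, against 11.81, 11.70 and 11.82 in ERRKO resting cells. They were 11.55, 11.51 and 11.49 in WT stimulated cells, against 11.99, 11.92 and 12.09 in WT resting cells. All stimulated arrays lay below all resting arrays of their genotype, and Polr2a fell by 0.40 ± 0.07 in ERRKO and 0.48 ± 0.07 in WT cells (SE, adjusted p = 0.000157 and 2.6e-05). Polr2b, the second-largest subunit, read 11.51, 11.58 and 11.54 in ERRKO stimulated and 11.36, 11.21 and 11.19 in ERRKO resting cells. It read 11.67, 11.57 and 11.57 in WT stimulated and 11.26, 11.23 and 11.24 in WT resting cells. Polr2b thus rose by 0.29 and 0.36 (SE 0.06 each) with no overlap, the opposite direction to Polr2a.

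The smaller Pol II subunits rose in both genotypes. Polr2d and Polr2g, which form the stalk where RNA leaves the enzyme, rose by 0.67 and 0.36 in ERRKO cells and by 0.92 and 0.32 in WT cells. Polr2j, a partner of Polr2c in the assembly platform of Pol II, read 10.54, 10.77 and 10.75 in ERRKO stimulated and 10.37, 10.04 and 10.14 in ERRKO resting cells. The WT stimulated arrays read 10.86, 10.88 and 10.80, against 10.08, 10.08 and 10.24 in WT resting cells. Its arrays did not overlap in either genotype, and it rose by 0.50 and 0.71 (SE 0.14 each). Polr2c rose by 0.70 and 0.82, and Polr2i, which acts in transcription fidelity, by 0.72 and 0.74. Polr2m, a protein bound to a fraction of Pol II, did not pass, with differences of -0.11 and -0.08.

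Pol III subunits held both large rises and the largest fall of all members. Polr3d encodes a subunit of a dimer that acts in initiation and termination. Its signals were 7.97, 8.29 and 8.38 in ERRKO stimulated cells, against 5.72, 6.07 and 5.84 in ERRKO resting cells. They were 8.21, 8.19 and 8.27 in WT stimulated cells, against 6.12, 6.30 and 6.07 in WT resting cells. The groups were apart, and Polr3d rose by 2.34 ± 0.17 (5.06-fold) in ERRKO and 2.06 ± 0.17 (4.17-fold) in WT cells (SE, adjusted p = 1.28e-08 and 3.79e-08). Polr3e, its dimer partner, read 9.29, 9.44 and 9.49 in ERRKO stimulated and 8.53, 8.62 and 8.56 in ERRKO resting cells. WT stimulated cells gave 9.64, 9.68 and 9.73, against 8.88, 8.91 and 8.998 in WT resting cells. Polr3e rose by 0.84 and 0.75 (SE 0.08 each), without overlap.

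Polr3k encodes the small Pol III subunit needed for RNA cleavage and termination. It read 10.01, 10.06 and 10.12 in ERRKO stimulated and 9.15, 8.79 and 8.69 in ERRKO resting cells. In WT stimulated cells it read 10.16, 10.14 and 10.14, against 8.73, 8.77 and 8.77 in WT resting cells. It rose by 1.18 and 1.39 (SE 0.13 each, adjusted p = 1.49e-06 and 2.24e-07), again with no shared range. Polr3a, the largest subunit of Pol III, moved little on the probe set used. It read 8.59, 8.40 and 8.31 in ERRKO stimulated and 8.14, 8.08 and 8.10 in ERRKO resting cells. Signals of WT stimulated cells were 8.58, 8.67 and 8.70, against 8.27, 8.42 and 8.49 in WT resting cells. The ranges of stimulated and resting cells came close without overlap, and Polr3a rose by 0.33 and 0.25 (SE 0.08 each). A second, dimmer probe set of Polr3a averaged 7.07 in ERRKO stimulated and 6.22 in ERRKO resting cells. Its means were 7.23 in WT stimulated and 6.85 in WT resting cells, without overlap in either genotype. The size of the rise thus depends on the probe set. Polr3c and Polr3f, which open DNA with Polr3g or Polr3gl as a 3-protein unit, did not pass in either genotype, with differences between -0.17 and 0.20. A second, dimmer probe set of Polr3c did rise, by 1.04 in ERRKO and 1.45 in WT cells (adjusted p = 0.000216 and 7.63e-06), so the call for Polr3c depends on the probe set.

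Polr3g and Polr3gl encode alternative versions of 1 Pol III subunit, and each enzyme carries one of them. In human cells the POLR3G form is known from stem and tumour cells and the POLR3GL form from most differentiated tissues. The 2 genes moved in opposite directions. Polr3g read 6.61, 7.01 and 7.02 in ERRKO stimulated cells, against 4.94, 5.06 and 4.73 in ERRKO resting cells. The WT stimulated arrays read 6.93, 7.41 and 7.35, against 5.31, 5.38 and 5.57 in WT resting cells. It rose by 1.97 ± 0.16 (3.92-fold) in ERRKO and 1.81 ± 0.16 (3.51-fold) in WT cells (SE, adjusted p = 4.05e-08 and 8.07e-08), with no overlap.

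Polr3gl read 6.04, 5.96 and 5.88 in ERRKO stimulated cells, against 7.66, 7.97 and 8.19 in ERRKO resting cells. WT stimulated cells gave 5.30, 5.95 and 5.98, against 8.17, 8.65 and 8.37 in WT resting cells. Every stimulated array lay below every resting array, and the difference was -1.98 ± 0.18 in ERRKO (3.94-fold lower) and -2.65 ± 0.18 in WT cells (6.28-fold lower, SE, adjusted p = 1.69e-07 and 6.42e-09). The Polr3g signal minus the Polr3gl signal on the same array averaged 0.92 ± 0.31 in ERRKO stimulated and -3.03 ± 0.38 in ERRKO resting cells, and 1.48 ± 0.13 in WT stimulated and -2.98 ± 0.26 in WT resting cells (SD, n = 3 each). The size of that difference depends on both probe sets and is no ratio of transcripts, but its shift between groups is a shift toward Polr3g.

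**Figure D2:**
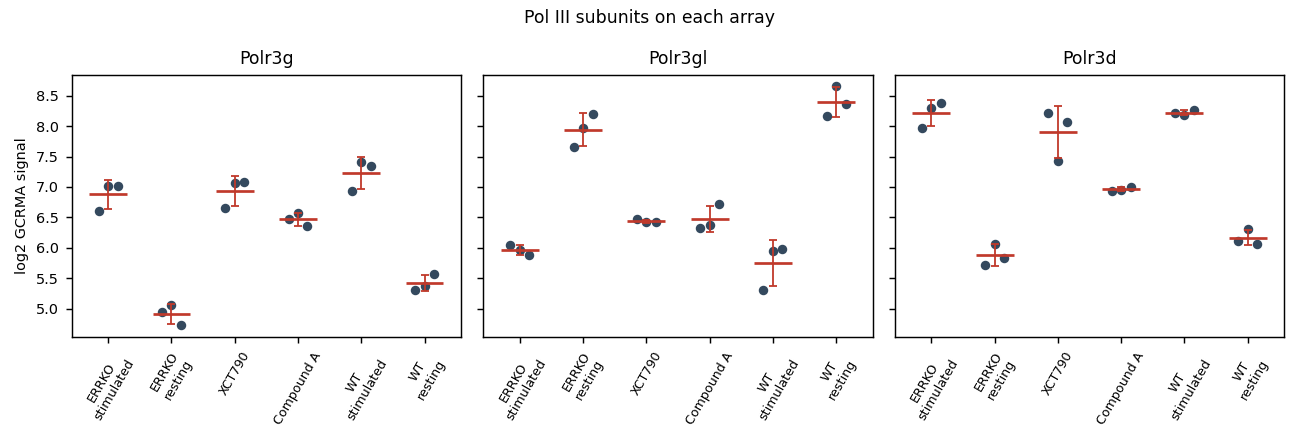
Log2 GCRMA signal of Polr3g, Polr3gl and Polr3d on each array (points), with the mean and SD of each group of 3 (bars). Polr3g and Polr3d are higher and Polr3gl is lower in stimulated than in resting cells of both genotypes, and the inhibitor arrays lie between for Polr3gl.

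The promoters of the 2 paralogues are shown because these genes took opposite courses. Each sequence is the 250 bases before the start of the gene in RefSeq, build GRCm38.p6, read on the minus strand, at chr13:81711014-81711263 for Polr3g and chr3:96594182-96594431 for Polr3gl. Capitals mark an ETS motif (CCGGAAG, here as its complement) whose first base lies 29 bases before the start of Polr3g, and an E-box (CACGTG) 194 bases before the start of Polr3gl.
Polr3g: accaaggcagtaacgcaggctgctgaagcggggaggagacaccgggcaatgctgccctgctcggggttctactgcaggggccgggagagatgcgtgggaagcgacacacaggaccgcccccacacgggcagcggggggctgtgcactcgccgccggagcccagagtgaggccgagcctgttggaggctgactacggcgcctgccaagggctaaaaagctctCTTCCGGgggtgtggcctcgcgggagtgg
Polr3gl: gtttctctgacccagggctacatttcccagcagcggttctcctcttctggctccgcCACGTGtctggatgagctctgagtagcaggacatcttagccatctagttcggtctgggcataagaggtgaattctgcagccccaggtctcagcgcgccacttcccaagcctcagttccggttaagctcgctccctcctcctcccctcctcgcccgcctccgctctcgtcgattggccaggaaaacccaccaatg
The searches covered both strands of that window in the 31 members with a promoter in the table. The E-box, which Myc and its partners bind, was in 3 of them (9.68%: Polr3c, Polr3gl and Rrn3), beside 10.9% of the 5666 genes tested that have a promoter there and 6.02% of all 32851 promoters. The ETS motif was in 9 members (29.0%: Gtf3c1, Gtf3c2, Polr1c, Polr2f, Polr2j, Polr3g, Taf1a, Taf1c and Ttf1), beside 18.7% of genes tested and 6.91% of all promoters. The extended ERR element TCAAGGTCA was in 0 members, beside 0.335% of genes tested and 0.387% of all promoters. TATAAA was in the windows of Polr2a and Polr2c (6.45%), beside 7.57% and 12.4%. None of these searched words contains another. A match describes these letters only.

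Among the Pol I factors, 3 of 7 rose in each genotype and none fell. Rrn3 links Pol I to promoter-bound factors and responds to growth signals. It read 8.88, 8.93 and 8.88 in ERRKO stimulated and 8.14, 8.06 and 8.07 in ERRKO resting cells. The WT stimulated arrays gave 9.17, 9.22 and 9.23, against 8.45, 8.44 and 8.26 in WT resting cells. No arrays overlapped, and the rise was 0.81 ± 0.06 in ERRKO and 0.83 ± 0.06 in WT cells (SE, adjusted p = 2.45e-08 and 1.51e-08). Ubtf, which binds along the ribosomal RNA genes, read 9.38, 9.81 and 9.90 in ERRKO stimulated and 9.48, 9.50 and 9.51 in ERRKO resting cells. The WT stimulated arrays read 10.11, 10.05 and 9.85, against 9.61, 9.52 and 9.49 in WT resting cells. The ERRKO groups overlapped and the difference of 0.20 did not pass (adjusted p = 0.136), whereas Ubtf rose by 0.47 in WT cells (adjusted p = 0.00213).

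Taf1a, Taf1b, Taf1c and Taf1d encode the subunits of the selectivity factor that recognises the ribosomal RNA promoter, and they did not move as a unit. Taf1d read 10.51, 10.20 and 10.09 in ERRKO stimulated and 9.43, 9.63 and 9.57 in ERRKO resting cells. WT stimulated cells gave 10.33, 10.24 and 10.25, against 9.60, 9.74 and 9.66 in WT resting cells. Taf1d rose by 0.72 and 0.61 (SE 0.12 each) without overlap. Its other probe sets also averaged higher in stimulated than in resting cells, with 8.87 against 7.47 on one of them in WT cells. The size of its rise differed between probe sets. Taf1a read 5.95, 5.82 and 5.97 in ERRKO stimulated and 5.24, 5.28 and 5.42 in ERRKO resting cells. Signals of WT stimulated cells were 6.06, 5.99 and 6.11, against 5.87, 5.95 and 6.16 in WT resting cells. Only the ERRKO groups were apart: Taf1a rose by 0.60 there (adjusted p = 0.000139), the WT difference was 0.06 (adjusted p = 0.649), and the difference between the responses did not pass (0.55, 95% interval 0.22 to 0.87, adjusted p = 0.0998). Taf1b, Taf1c and the termination factor Ttf1 passed in neither genotype, with differences between -0.21 and 0.06. A second probe set of Ttf1 averaged 6.79 in WT stimulated and 7.34 in WT resting cells, without overlap. In ERRKO cells that probe set averaged 6.60 with stimulation and 6.93 at rest, and the arrays overlapped. The reading for Ttf1 thus depends on the probe set.

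Of the Pol III factors, Gtf3a, which binds the genes of the smallest ribosomal RNA, fell in both genotypes. Its signals were 9.82, 10.00 and 9.92 in ERRKO stimulated and 10.34, 10.36 and 10.31 in ERRKO resting cells. WT stimulated cells read 10.04, 10.11 and 9.98, against 10.35, 10.29 and 10.39 in WT resting cells. The fall was 0.42 ± 0.07 in ERRKO and 0.30 ± 0.07 in WT cells, with stimulated arrays below all resting ones. Gtf3c1 and Gtf3c2, subunits of the factor that reads transfer RNA promoters, were 0.24 and -0.34 in ERRKO cells, which passed, and 0.14 and -0.05 in WT cells, which did not. A further probe set of Gtf3c2 gave 0.43 in ERRKO cells (adjusted p = 0.0154), so the direction for Gtf3c2 depends on the probe set.

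**Figure D3:**
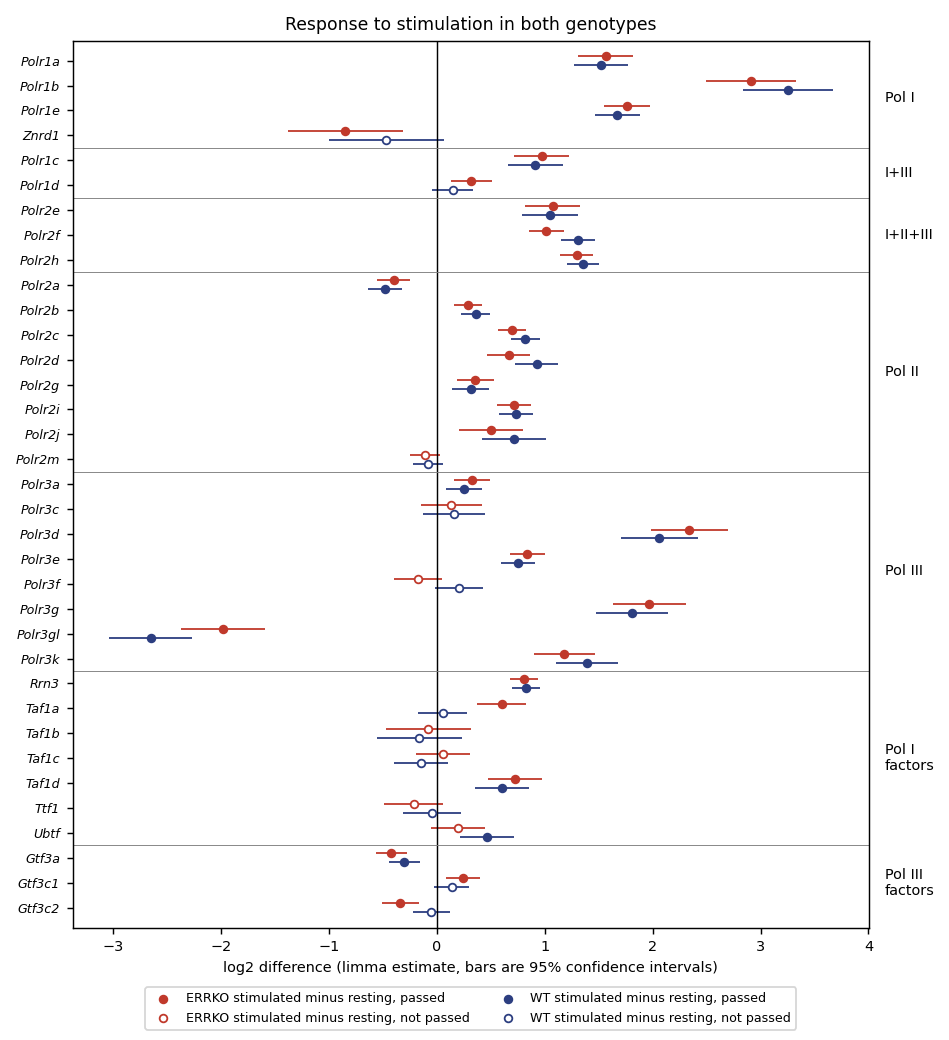
Log2 difference between stimulated and resting cells for each member in ERRKO (red) and WT (blue) cells, with 95% confidence intervals from limma (bars); filled points passed. The Pol I subunits Polr1a, Polr1b and Polr1e and the Pol III subunits Polr3d and Polr3g lie above 1.5 in both genotypes, and Polr3gl lies near or below -2.

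Compared by enzyme, the median response was 1.66 for the 4 Pol I subunits, 0.43 for the 8 Pol II subunits and 0.58 for the 8 Pol III subunits in ERRKO cells. In WT cells it was 1.60, 0.54 and 0.50. The members of each enzyme spread widely around these medians, so the ranges overlapped. In WT cells Pol I subunits lay between -0.47 and 3.25, Pol II subunits between -0.48 and 0.92, and Pol III subunits between -2.65 and 2.06. In ERRKO cells the ranges were -0.85 to 2.91, -0.40 to 0.72 and -1.98 to 2.34. Pol II subunits had the narrowest range in both genotypes, and 6 of 8 rose, against 5 of 8 for Pol III and 3 of 4 for Pol I. These are descriptions of few genes chosen with earlier results known, and no test was made between the enzymes.

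Other parts of the transcription machinery were read from lists without members. Of 17 genes for ribosomal RNA processing and the nucleolus, 17 rose in each genotype, with Nop16 at 2.58 and Nolc1 at 2.46 in WT cells. Among factors that assemble polymerases in the cytoplasm 7 of 11 rose and 1 fell in ERRKO cells, and 7 rose and 0 fell in WT cells, where Ruvbl1 rose by 2.08 and Rpap3 by 1.77. Of 21 general transcription factors of Pol II, 16 rose and 1 fell in each genotype, and the median was 0.57 in ERRKO and 0.55 in WT cells. Elongation factors of Pol II were mixed, with 9 of 17 higher and 3 lower in ERRKO and 8 higher and 5 lower in WT cells. Of 9 other Pol III factors, 7 rose and 1 fell in ERRKO cells and 8 rose and 1 fell in WT cells, the fall being Maf1, the repressor of Pol III, at -0.67 in WT cells. Myc, a known activator of all 3 polymerases, rose by 2.25 in WT cells (adjusted p = 1.34e-10).

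Over the 18 arrays the genes most like Polr1b were Ebna1bp2, Fbl, Smyd5, Nop16 and Prep, with Pearson correlations between 0.991 and 0.994. Among the members Polr2h was most like Polr1b (0.98), and Polr3gl ran opposite to it (-0.95). The correlations with Polr1b were 0.97 for Polr1a, 0.96 for Polr1e, 0.92 for Polr3g, -0.73 for Polr2a and -0.48 for Znrd1. The 18 points fall into 6 groups and share the step between rest and stimulation, so these values describe the pattern over groups.

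Resting cells also carried more RNA of other cell types than stimulated cells did. The mean log2 signal of 12 macrophage markers lay between 2.30 and 2.99 in ERRKO stimulated and 7.66 and 9.39 in ERRKO resting cells, and between 2.35 and 2.36 in WT stimulated and 7.20 and 8.18 in WT resting cells. In WT stimulated cells all 12 macrophage markers, 8 of 9 neutrophil markers and 7 of 7 erythroid markers were under log2 4 on every array. In ERRKO stimulated cells 10 of 12 macrophage and 4 of 9 neutrophil markers were. Of 7 B cell markers, 6 were lower after stimulation in each genotype, with a median of -1.37 in ERRKO and -2.35 in WT cells, and Cd79a at -3.73 and -4.94. Of 9 T cell markers, 5 were lower and 2 higher in ERRKO cells, and 5 lower and 1 higher in WT cells, with Cd4 at -1.09 and -1.37. Markers of dividing cells were also lower after stimulation, with 11 of 11 lower in ERRKO and 6 of 11 lower in WT cells. The part of these cells in the differences between stimulated and resting members was not tested.

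In the test of the ERRKO response minus the WT response, 0 of 35 members passed with limma, where 0.902% of all genes did. At an unadjusted p under 0.05, 2 members were higher and 3 lower, and the share of all genes there was not counted. The smallest p belonged to Taf1a. The 95% interval of the difference was -0.32 to 0.40 for Polr1a, -0.20 to 0.39 for Polr1e and -0.27 to 0.15 for Polr2h on the log2 scale. It was wider for Polr1b (-0.93 to 0.25), Polr3d (-0.23 to 0.78) and Polr3gl (0.12 to 1.22, adjusted p = 0.198). The count of 0 did not hold under every setting. With array weights, whose estimation stopped before it converged, Taf1a was higher (0.56) and Polr2f (-0.31), Polr3f (-0.35) and Gtf3c2 (-0.40) were lower, and on arrays numbered 2 and 3 alone, a choice made after seeing the data, Taf1a was higher (0.56).

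In stimulated cells 1 of 35 members differed between the genotypes, where 0.597% of all genes were lower and 1.59% higher in ERRKO cells (2.18% called in all). This was Rrn3, which was -0.32 ± 0.06 in ERRKO stimulated minus WT stimulated cells (SE, 1.24-fold lower, adjusted p = 0.0133) on the arrays given above, which did not overlap. The call was lost without WT stimulated replicate 2 or 3 or without ERRKO stimulated replicate 1 (adjusted p between 0.0534 and 0.0719). With the array number as a block, Polr3e passed as well (-0.27, adjusted p = 0.0409, against 0.0859 without the block). No member was higher with limma, and 0 were higher and 10 lower at an unadjusted p under 0.05. The share of all genes at that unadjusted threshold was not counted. The median difference was -0.14 over the members and -0.06 over all genes tested. Largest of the members not passed was Znrd1 at -0.72 (95% interval -1.25 to -0.19), whose arrays overlapped. The mean signal of the 9 neutrophil markers lay between 2.69 and 5.36 in ERRKO stimulated and between 2.22 and 2.54 in WT stimulated cells, with S100a8 at a mean of 7.17 and 2.86, although 0 of 8 tested markers passed. Their part in the Rrn3 value was not tested. With the same array weights 11 members were lower.

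In resting cells 8 members were lower in ERRKO than in WT cells and 0 were higher with limma, where 12.3% of all genes were lower and 6.74% higher (19.0% called in all). At an unadjusted p under 0.05, 11 were lower and 2 higher, a threshold at which the share of all genes was not counted. The member median was -0.15, beside -0.11 over all genes tested. Taf1a, given above, lay at 5.31 ± 0.10 in ERRKO resting and 6.00 ± 0.15 in WT resting cells (SD, n = 3 each), a difference of -0.68 ± 0.11 (SE, adjusted p = 0.000875). Taf1c read 8.43, 8.27 and 8.05 in ERRKO resting cells, against 9.04, 8.62 and 8.94 in WT resting cells. Its groups did not overlap, and the difference was -0.61 ± 0.12 (SE, adjusted p = 0.00359). The other 6 were Polr3g (-0.51), Polr3e (-0.36), Rrn3 (-0.29), Polr3a (-0.29), Gtf3c1 (-0.28) and Polr2a (-0.22), each with all 3 ERRKO arrays below all 3 WT arrays, where the arrays of 38.9% of all genes did not overlap. By enzyme, 3 of 8 Pol III subunits, 1 of 8 Pol II subunits and 0 of 4 Pol I subunits were lower. Several of these calls were lost on leaving out 1 array. Polr3a and Gtf3c1 were each lost without either of 2 WT resting arrays (replicates 2 and 3 for Polr3a, 1 and 3 for Gtf3c1), and Polr3g without WT resting replicate 2 or 3 or ERRKO resting replicate 1 or 3 (adjusted p between 0.0743 and 0.133). Polr2a was lost on leaving out any of 13 arrays, among them all 6 resting ones (adjusted p between 0.0502 and 0.171).

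These ERRKO resting arrays also differed in other cell types. The mean signal of 7 erythroid markers lay between 7.53 and 9.62 in ERRKO resting and between 3.32 and 5.97 in WT resting cells, and 6 of 6 tested were higher. The mean of 9 neutrophil markers lay between 6.63 and 9.07 in ERRKO resting and between 3.88 and 5.57 in WT resting cells (6 of 8 higher), and that of 11 markers of dividing cells between 8.11 and 10.0 and between 6.71 and 7.75 (5 of 11 higher). B cell markers ran the other way, between 6.16 and 6.24 in ERRKO resting and 6.58 and 7.70 in WT resting cells (3 of 7 lower). Their part in the differences between resting members was not tested. The count of members lower was 4 without WT resting replicate 3 and 1 in a fit of the resting groups alone.

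Against stimulated WT cells more members were lower than higher with each inhibitor. With XCT790 20 members were lower and 8 higher, where 36.9% of all genes were lower and 29.1% higher (66.0% called in all). With Compound A 16 members were lower and 1 higher, where 18.7% of all genes were lower and 14.5% higher (33.2% called in all). The member medians were -0.32 with XCT790 and -0.20 with Compound A, beside -0.06 and -0.03 over all genes tested. The 2 comparisons share the WT stimulated arrays, so their values are given side by side. The arrays of both inhibitors lie on the other side of the 5 prime spike-in split from those of WT stimulated cells.

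The 3 responsive Pol I subunits were lower with both compounds. On the Polr1b probe set XCT790 gave 6.21, 6.78 and 6.90 and Compound A gave 7.25, 7.38 and 7.22, all below the WT stimulated arrays given above. The differences were -1.57 ± 0.19 with XCT790 (2.98-fold lower, adjusted p = 6.05e-06) and -0.92 ± 0.19 with Compound A (1.89-fold lower, adjusted p = 0.0027; SE). Polr1e read 7.87, 7.97 and 8.28 with XCT790 and 8.52, 8.35 and 8.42 with Compound A, which gave -1.15 and -0.76 (SE 0.10 each). Polr1a read 8.07, 8.33 and 8.36 with XCT790 and 8.48, 8.44 and 8.53 with Compound A, also without overlap. Its differences were -1.02 and -0.79 (SE 0.12 each), a fall that its other probe sets did not show. Znrd1 did not pass with either compound (0.20 and 0.16).

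Of the 5 shared subunits, 3 were lower with both compounds, and Polr1c and Polr2e passed with XCT790 alone. Polr1c read 10.63, 10.61 and 10.83 with XCT790 and 9.96, 10.28 and 10.44 with Compound A. The XCT790 arrays lay above the WT stimulated ones (0.46, adjusted p = 0.00361), and the Compound A arrays overlapped them (-0.01, adjusted p = 0.993). Polr1d, its partner, was lower with XCT790 (-0.40) and with Compound A (-0.24, adjusted p = 0.0446, and 0.0535 with the array number as a block). The Compound A call of Polr1d was lost on leaving out any of 10 arrays, among them all 3 of WT stimulated cells and Compound A replicates 2 and 3 (adjusted p between 0.0527 and 0.176). Polr2e read 10.20, 10.79 and 10.70 with XCT790 and 11.23, 11.19 and 11.26 with Compound A. It was -0.78 with XCT790 (adjusted p = 4.81e-05) and -0.12 with Compound A, which did not pass (95% interval -0.37 to 0.14). Polr2f and Polr2h were lower with both, at -1.10 and -0.71 with XCT790 and -0.54 and -0.61 with Compound A.

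With XCT790 7 of 8 Pol II subunits were lower and Polr2m was higher (0.19, a call lost without WT stimulated replicate 1, adjusted p = 0.0629), and with Compound A 3 of 8 were lower. Polr2j had the largest fall, with 9.14, 9.80 and 9.40 on the XCT790 arrays and 10.55, 10.32 and 10.36 on the Compound A arrays. Both sets lay below the WT stimulated arrays, by 1.40 ± 0.14 with XCT790 (SE, adjusted p = 6.9e-07), and Compound A gave a difference of -0.44 (adjusted p = 0.026). That Compound A call was lost without any 1 of the 3 WT stimulated arrays or of Compound A replicates 2 and 3 (adjusted p between 0.0521 and 0.0919). Polr2g read 10.67, 10.82 and 10.54 with XCT790, 11.51, 11.34 and 11.40 with Compound A and 11.64, 11.59 and 11.63 in WT stimulated cells. It fell by 0.94 with XCT790 and the Compound A value of -0.20 did not pass, although the XCT790 arrays lay below even the WT resting arrays (11.24, 11.31 and 11.37). Polr2d was the Pol II subunit lowered most by Compound A (-0.59), against -0.31 with XCT790. The largest subunit Polr2a read 11.18, 11.33 and 11.35 with XCT790 and 11.54, 11.32 and 11.39 with Compound A. It was -0.23 with XCT790, a call lost without XCT790 replicate 1 (adjusted p = 0.0542), and -0.10 with Compound A, which did not pass. Polr2b was -0.30 with XCT790 and -0.06 with Compound A, which did not pass.

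Of the 8 Pol III subunits, 2 were lower and 2 higher with XCT790, and 3 were lower and 1 higher with Compound A. Polr3d read 8.21, 7.42 and 8.07 with XCT790 and 6.94, 6.95 and 7.001 with Compound A. On this probe set only the Compound A arrays were apart from the WT stimulated arrays, with a fall of 1.26 ± 0.17 (SE, 2.40-fold lower, adjusted p = 9.43e-05). The XCT790 value of -0.32 did not pass (adjusted p = 0.101). On the second probe set of Polr3d the XCT790 arrays also lay below all WT stimulated arrays, at a mean of 7.02 against 7.45. Polr3g read 6.65, 7.07 and 7.08 with XCT790 and 6.47, 6.57 and 6.36 with Compound A. It fell by 0.76 with Compound A (adjusted p = 0.00221), and its XCT790 arrays overlapped the WT stimulated arrays (-0.29, adjusted p = 0.113). Polr3gl, the paralogue, read 6.47, 6.42 and 6.43 with XCT790 and 6.33, 6.38 and 6.72 with Compound A. It was higher than in WT stimulated cells with both, by 0.69 and 0.73 (SE 0.18 each), with no overlap. Polr3g minus Polr3gl on the same array averaged 0.50 ± 0.27 with XCT790 and -0.01 ± 0.30 with Compound A, against 1.48 ± 0.13 in WT stimulated cells (SD, n = 3 each).

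Polr3k read 8.80, 9.24 and 8.87 with XCT790 and 10.03, 9.66 and 9.65 with Compound A. On the probe set used it fell by 1.18 ± 0.13 with XCT790 (SE, adjusted p = 2.39e-06), to just above the WT resting arrays, and by 0.37 with Compound A. The Compound A call was narrow (adjusted p = 0.046, and 0.0511 with the array number as a block), and it was lost on leaving out any of 13 arrays, among them all 3 of WT stimulated cells and Compound A replicates 2 and 3 (adjusted p between 0.0515 and 0.16). Polr3e read 9.88, 9.79 and 9.98 with XCT790 and 9.52, 9.71 and 9.72 with Compound A, and was higher than in WT stimulated cells with XCT790 alone (0.20, adjusted p = 0.0283). That call was lost without any 1 of WT stimulated replicates 1 and 2 and XCT790 replicates 1 and 3. The largest subunit Polr3a did not pass with either compound (-0.04 with XCT790 and -0.16 with Compound A), and Polr3c was lower with XCT790 (-0.62), which its second probe set did not show (0.03, adjusted p = 0.902).

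**Figure D4:**
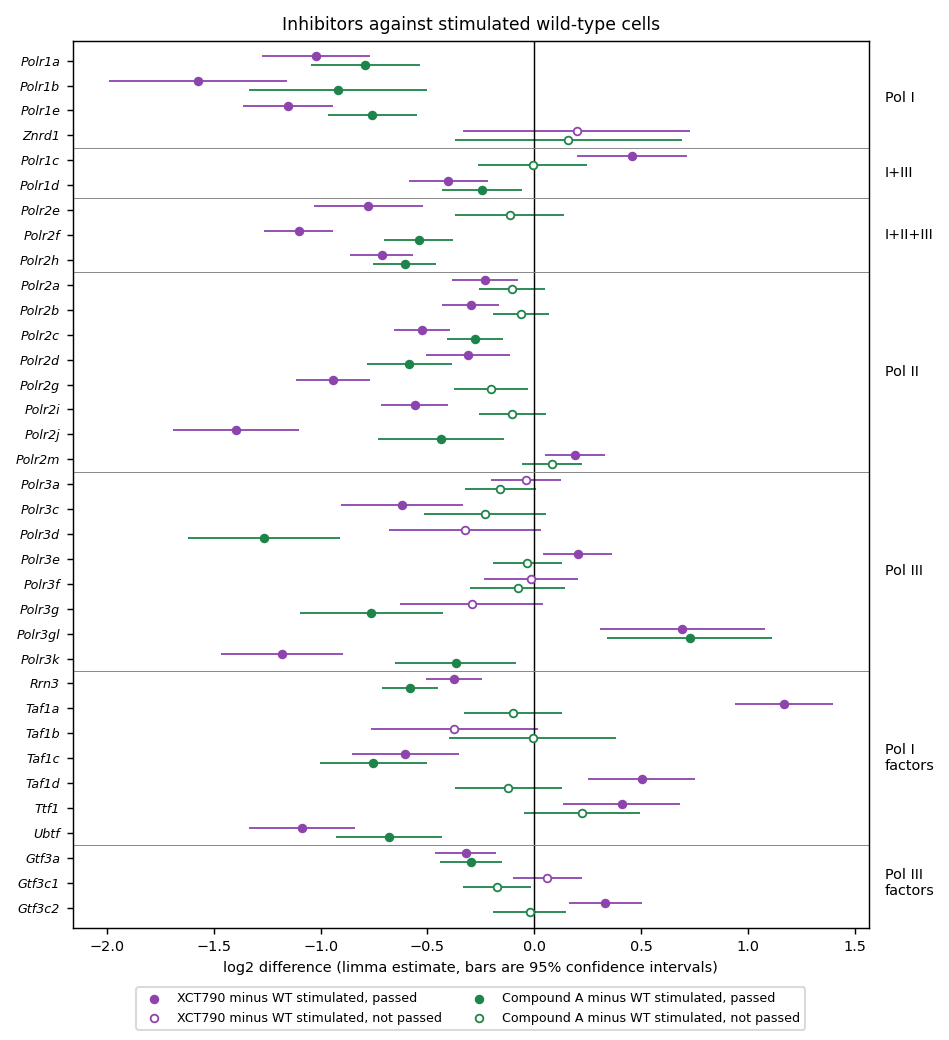
Log2 difference from WT stimulated cells for each member with XCT790 (purple) and Compound A (green), with 95% confidence intervals from limma (bars); filled points passed. Polr1a, Polr1b and Polr1e lie below -0.7 with both compounds, Polr3gl lies above 0.6 with both, and Taf1a is raised with XCT790 alone.

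The Pol I factors held the largest rise against WT stimulated cells. Taf1a read 7.47, 7.001 and 7.18 with XCT790 and 5.91, 5.97 and 5.97 with Compound A. The XCT790 arrays lay above every other array of the series, and Taf1a was higher than in WT stimulated cells by 1.17 ± 0.11 (SE, 2.25-fold, adjusted p = 3.37e-07). With Compound A the difference was -0.10 (adjusted p = 0.516). Taf1d read 10.85, 10.60 and 10.88 with XCT790 and 10.35, 10.14 and 9.97 with Compound A, and was higher with XCT790 (0.50) but not with Compound A (-0.12). Another probe set of Taf1d averaged lower with XCT790 than in WT stimulated cells, at 7.39 against 7.72. Its remaining probe sets averaged higher, at 8.41, 9.22 and 6.24 with XCT790 against 7.95, 8.87 and 5.78. Taf1c, another subunit of the same complex, read 8.27, 7.96 and 8.12 with XCT790, 7.92, 8.02 and 7.95 with Compound A and 8.79, 8.74 and 8.62 in WT stimulated cells. It was lower with both, by 0.60 and 0.75, so Taf1a and Taf1c moved in opposite directions with XCT790. Ubtf, on the brighter of its 2 probe sets, read 8.89, 9.05 and 8.81 with XCT790 and 9.42, 9.32 and 9.23 with Compound A, and fell by 1.09 and 0.68 (SE 0.12 each). Rrn3 read 8.82, 8.83 and 8.84 with XCT790 and 8.68, 8.64 and 8.56 with Compound A, and fell by 0.38 and 0.58. Taf1b did not pass (-0.37 with XCT790, adjusted p = 0.0845, and 0.0174 with the array number as a block). Ttf1 was higher with XCT790 (0.41, adjusted p = 0.011) and did not pass with Compound A (0.22) or on its second probe set (0.14 with XCT790). Of the Pol III factors, Gtf3a fell by 0.32 with XCT790 and 0.30 with Compound A. Gtf3c2 was higher with XCT790 (0.33, adjusted p = 0.00207) and did not pass with Compound A (-0.02), and 1 of its other probe sets was lower with XCT790 (-0.29). Gtf3c1 passed with neither.

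The lists without members differed among themselves. Of 17 genes for ribosomal RNA processing, 15 were lower with XCT790 and 14 with Compound A, and none was higher. Of 11 assembly factors 9 were lower with XCT790 and 6 with Compound A, and none was higher. Of 21 general transcription factors of Pol II, 11 were lower and 5 higher with XCT790, and 6 lower and 1 higher with Compound A. Elongation factors of Pol II had 6 of 17 lower and 4 higher with XCT790, and 3 lower and 0 higher with Compound A. Among 9 other Pol III factors, 5 were lower and 1 higher with each compound. Of 6 regulators of ribosomal and transfer RNA transcription, 1 was lower and 2 higher with XCT790, with a median of 0.00, and 1 was lower and 0 higher with Compound A. Myc was -1.05 with XCT790 and -0.45 with Compound A (adjusted p = 6.86e-07 and 0.00455). Maf1, the Pol III repressor, was higher with both, by 0.50 and 0.42. Markers of dividing cells were lower with XCT790 in 6 of 11 and with Compound A in 1 of 11. Their mean signal lay between 3.78 and 4.50 with XCT790 and 4.19 and 4.99 with Compound A, against 5.33 and 5.68 in WT stimulated cells. Of 9 T cell markers, 4 were lower and 1 higher with XCT790, among them Cd3g (-1.19), Cd4 (-1.03) and Cd3e (-0.76), and 0 were lower and 1 higher with Compound A. The part of these differences in the members' values was not tested.

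Set directly against each other at the same dose of 20 µM, XCT790 and Compound A differed in 22 of the 35 members, 10 higher and 12 lower with XCT790, where 24.8% of all genes were higher and 27.8% lower (52.6% called in all). This comparison of 1 pair of compounds lies on one side of the split seen at the 5 prime spike-in probe set. Within that side, the 5 prime and the 3 prime probe sets each separate the pair. Of 9 T cell markers, 5 were lower with XCT790 than with Compound A and 0 higher, with Cd3g at -1.43, Cd4 at -1.11 and Cd3e at -0.76, and their part in the members' values was not tested. Higher with XCT790 were Taf1a by 1.27 ± 0.11, Polr3d by 0.94 ± 0.17, Taf1d by 0.62 ± 0.12 and Polr3g by 0.47 ± 0.16 (SE). Lower with XCT790 were Polr2j by 0.96 ± 0.14, Polr3k by 0.81 ± 0.13, Polr2g by 0.74 ± 0.08 and Polr2e by 0.66 ± 0.12 (SE). By enzyme, 5 of 8 Pol II subunits were lower with XCT790 and 1 was higher, while 2 of 8 Pol III subunits were lower and 3 higher. Of the Pol I subunits, Polr1b (-0.65) and Polr1e (-0.39) were lower with XCT790.

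For 13 members no difference between the compounds was detected. The interval was -0.42 to 0.35 for Polr3gl, -0.49 to 0.02 for Polr1a, -0.26 to 0.04 for Polr2h and -0.17 to 0.12 for Gtf3a on the log2 scale, and -0.49 to 0.57 for Znrd1, the widest. Among the 13, Taf1b (-0.37), passed with the array number as a block (adjusted p = 0.0244, against 0.107 without it). The Polr1b call was lost without XCT790 replicate 1 (adjusted p = 0.0643) and the Polr3g call without XCT790 replicate 2 or 3 or Compound A replicate 3. Also lost were Polr2d without XCT790 replicate 3 or Compound A replicate 2 or 3, Polr3c without replicate 1 or 3 of XCT790 or 1 or 2 of Compound A, Polr3e and Gtf3c1 without XCT790 replicate 3 or Compound A replicate 1, and Rrn3 without Compound A replicate 3 (adjusted p between 0.0546 and 0.112). The count of members higher was 6 without XCT790 replicate 3.

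Against resting WT cells more members were higher than lower with either inhibitor. With XCT790 19 members were higher and 10 lower, where 33.6% of all genes were higher and 38.3% lower (71.9% called in all). With Compound A 17 were higher and 4 lower, where 32.6% were higher and 37.1% lower (69.7% called in all). Polr1b was 1.68 above WT resting cells with XCT790 and 2.33 with Compound A (SE 0.19 each), Polr3g 1.52 and 1.05, Polr3d 1.74 and 0.80, and Polr1c 1.37 and 0.91. Polr3gl was lower, by 1.96 with XCT790 and 1.92 with Compound A, as were Polr2a (-0.71 and -0.58), Gtf3a (-0.62 and -0.60) and Taf1c (-0.75 and -0.90). Polr2j and Polr2g lay below WT resting cells with XCT790 (-0.68 and -0.63) and did not pass with Compound A (0.28 and 0.11). Polr3k was 1.03 with Compound A, and its XCT790 value of 0.21 did not pass (adjusted p = 0.164). The members therefore shared no single order of the 4 WT groups. Polr1b averaged 6.63 with XCT790 and 7.29 with Compound A, between 8.20 in WT stimulated and 4.95 in WT resting cells. Polr2j averaged 9.45 with XCT790, below 10.41 with Compound A, 10.85 in WT stimulated and 10.13 in WT resting cells. Markers of other cells were lower than in WT resting cells with both compounds, in 10 of 11 macrophage, 6 of 7 B cell, 3 of 8 neutrophil, 4 of 6 erythroid and 9 of 11 dividing-cell markers each. The macrophage median was -6.32 with either compound. Of 9 T cell markers, 5 were lower and 2 higher with each, with Cd4 at -2.40 and Cd3g at -2.26 with XCT790 and -1.29 and -0.83 with Compound A. Their part in the members' values was not tested.

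Several members are read by more than 1 probe set, and some of these disagreed. Of 61 probe sets for the 35 members, 17 members have more than 1, and the brightest was used above. Polr1a has 3. With stimulation all 3 rose in both genotypes, the second by 1.26 in ERRKO and 1.35 in WT cells and the third by 0.71 and 0.48. Against WT stimulated cells the second read 7.77 with XCT790 and 7.79 with Compound A, against 7.46 in WT stimulated cells (differences 0.32 and 0.34, not passed). The third gave 0.23 and 0.19, also not passed, so the fall of Polr1a with the inhibitors was seen on 1 of its 3 probe sets. A second probe set of Polr1e gave nearly the values of the first (-1.14 with XCT790 and -0.78 with Compound A), and that of Polr3d fell with Compound A as well (-0.97). The second probe set of Polr1d rose with stimulation by 1.08 in ERRKO and 1.05 in WT cells and fell by 1.02 with XCT790, more than the one used. For Polr3k a second signal rose by 1.75 and 2.12, while 2 further ones stayed between -0.14 and 0.07 and did not pass. With XCT790 that second signal averaged 7.22, against 8.76 in WT stimulated cells. The further ones averaged 8.69 and 7.26 with XCT790, against 8.79 and 7.48 in WT stimulated cells. The second probe set of Ubtf varied more between arrays, with a group SD of up to 0.96, and gave 0.98 with XCT790 and 1.01 with Compound A against WT stimulated cells, neither of which passed. Of 21 other probe sets tested, 14 gave the same call as the one used in each genotype's response to stimulation, and 8 did so for XCT790 against WT stimulated cells.

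**Figure D5:**
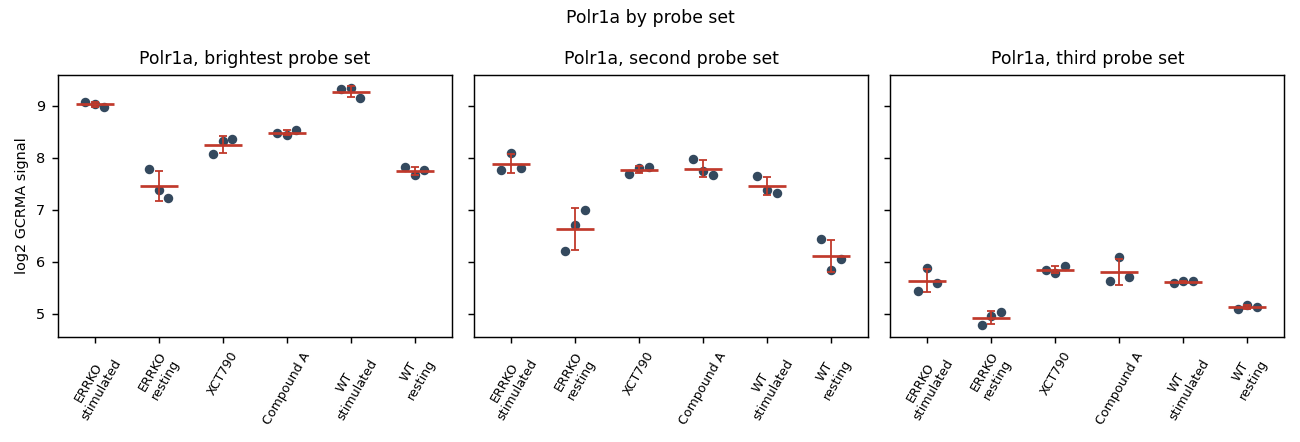
Log2 GCRMA signal of the 3 probe sets of Polr1a on each array (points), with the mean and SD of each group of 3 (bars). All 3 are higher in stimulated than in resting cells of both genotypes, and the inhibitor arrays lie below the WT stimulated arrays on the brightest probe set alone.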

How the data were processed

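The values are log2 signals per probe set as deposited, made by the authors with GCRMA per the submitters' processing notes, and all 18 arrays held the same 22690 sorted values. Groups came from the labels. Of 20380 probe sets naming 1 gene in GEO's platform annotation, the one with the highest mean over 18 arrays stood for each of 12393 genes, and the 6873 genes that reached log2 4 on at least 3 arrays were tested. The 10 comparisons were fitted in 1 model with 1 mean per group in limma 3.58.1 (R 4.3.3; residual degrees of freedom 12, prior 2.22) by two-sided tests, with Benjamini-Hochberg adjustment over all genes tested. A fold is 2 raised to the log2 difference, and intervals are 95% limma intervals. The fit was tested on simulated data.

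The members and gene lists were chosen with earlier results of these data known. Every member may be named. Values on every array are given for the 2 largest subunits of each enzyme, the Polr3g pair, Ubtf, Rrn3 and the 4 largest rises and falls that passed in each comparison. From lists without members, up to 4 genes of smallest adjusted p may be named. In addition, Rpap3, Nolc1 and Maf1 were read from those lists, and genes like Polr1b were the 5 with the highest Pearson correlation. Promoters are RefSeq's (GRCm38.p6), found for 31 members.

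Equally numbered arrays deviated together (3 of 3 correlations over 0.1) in ERRKO stimulated against resting cells, ERRKO against WT cells in either state and both inhibitors against WT stimulated cells. No shared animal or day is named in the labels.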

Additional observations from a re-analysis of the deposited data

Results flagged for a closer look

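Polr2k and Polr2l encode the 2 small subunits shared by all 3 enzymes that were left out of every comparison, because their probe sets name another gene as well. Both probe sets carried a signal that was higher in stimulated than in resting cells. The Usp50 and Polr2l probe set averaged 11.49 ± 0.02 in ERRKO stimulated and 10.71 ± 0.18 in ERRKO resting cells, a difference of 0.78, and 11.61 ± 0.06 in WT stimulated and 10.59 ± 0.06 in WT resting cells, a difference of 1.02 (SD, n = 3 each). The LOC100862456 and Polr2k probe set averaged 11.10 ± 0.06 in ERRKO stimulated and 10.76 ± 0.00 in ERRKO resting cells, a difference of 0.34, and 11.43 ± 0.06 in WT stimulated and 10.63 ± 0.21 in WT resting cells, a difference of 0.81. Which of the named genes gave the signal was not tested.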

How the results depend on the processing

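Most member results kept direction and call under no filter, a floor of log2 6, a common array median and a trended robust prior, with 346, 349, 337 and 349 of 350 unchanged. With array weights, whose estimation stopped before it converged so that these values are uncertain, members lower were 6 in WT stimulated against resting cells and 11 in ERRKO against WT stimulated cells, members higher were 3 with Compound A against WT stimulated cells and 3 in ERRKO against WT resting cells, and the interaction called 1 higher and 3 lower. The medians there were -0.92 for Pol I with XCT790 against WT stimulated cells, and 0.51 in ERRKO stimulated against resting and -0.046 in ERRKO against WT resting cells for Pol II. On arrays numbered 2 and 3 alone, chosen after seeing the data, members lower were 5 in WT stimulated against resting, 2 in ERRKO against WT stimulated and 7 in Compound A against WT resting cells, members higher were 1 in the interaction and 1 in ERRKO against WT resting cells, and the medians were -0.98 for Pol I with XCT790 and 0.52 for Pol II in ERRKO cells. In fits of the compared groups alone 1 member was lower in ERRKO resting cells and 2 were higher with Compound A. With the replicate block 2 members were lower in ERRKO against WT stimulated cells, and no other count moved by over 1.5 times. The cause of these changes was not tested.

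With the mean of all probe sets the Pol I medians were 1.51 (ERRKO) and 1.45 (WT) after stimulation, -0.16 in ERRKO resting cells, -0.65 with XCT790 and -0.43 with Compound A against WT stimulated cells, and the Pol III medians were 0.62 in WT cells after stimulation and -0.12 with Compound A. Directions turned for Gtf3c2 in ERRKO cells after stimulation (0.045), for Ubtf with Compound A against WT stimulated cells (0.17), for Polr3c (0.51), Ttf1 (-0.024) and Ubtf (0.50) with XCT790 against WT resting cells, and for Polr1d (0.33), Polr3c (0.88) and Ubtf (0.73) with Compound A against WT resting cells. Other probe sets on their own, also added after seeing the data, turned Gtf3c2 after stimulation (0.43 in ERRKO and 0.39 in WT cells), in ERRKO resting cells (-0.39), and with XCT790 against WT stimulated (-0.29) and resting cells (-0.39). They turned Ttf1 in ERRKO resting cells (-0.41) and against WT resting cells with XCT790 (-0.41) and Compound A (-0.47). Against WT resting cells they also turned Polr3c (1.49 with XCT790, 1.83 with Compound A), Ubtf (1.63 and 1.67) and Polr1d (0.75 with Compound A).

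Leaving out 1 array at a time, the interaction called 0 to 1 higher, ERRKO against WT resting cells 0 to 1 higher and 4 to 9 lower, ERRKO against WT stimulated cells 0 to 1 lower, and XCT790 against Compound A 6 to 10 higher. The Pol II median in ERRKO cells lay between 0.39 and 0.49 (0.49 without ERRKO stimulated replicate 1), and the Pol III median with XCT790 between -0.22 and -0.054 (-0.095 and -0.054 without XCT790 replicates 1 and 2). The 3 arrays per group limit the precision, and the signal of dim probe sets is the least certain.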
